A study of Mus musculus with 12 samples.

Results

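The transcripts described here are 36 genes, of 55450 in the deposited tables, that are best known from B cells and from cells that present antigen on major histocompatibility complex (MHC) class II. They were picked by symbol from a list of names chosen with earlier results of these data known, and all 36 were found in both tables. They were measured in cultures of purified mouse CD4 T cells, where they serve as a measure of RNA that is not typical of T cells. Messenger RNA was sequenced from CD4 T cells that lacked Pkm2 (KO), the M2 form of pyruvate kinase made from the Pkm gene, or were wild type (WT). The 4 groups were KO and WT cells stimulated with plate-bound anti-CD3 (coated at 1 ug/mL) and anti-CD28 (2 ug/mL) in medium with human interleukin 7 (IL7, 25 ng/mL), and KO and WT cells rested in IL7 alone, with 3 libraries each. Every group thus received IL7. For both resting and stimulated cells, the culture time is 24 hours in the design text and overnight in the treatment labels, so the exact time is uncertain. The labels name neither the allele nor the promoter or Cre behind the knockout, and do not give the animals' age. They say that CD4 T cells were positively selected before RNA extraction, call the source both spleen with lymph nodes and splenocytes, and leave unsaid whether each library is a separate animal. The p-values below therefore reflect how much the libraries varied, and part of that variation may be technical.

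B cells recognise antigen with surface immunoglobulin, which signals through the CD79 chains and the kinases Syk, Blk and Btk. B cells, dendritic cells and macrophages load peptides onto class II molecules with the help of the invariant chain Cd74 and the DM and DO proteins, and the coactivator Ciita switches this set of genes on. CD4 T cells read class II through their T cell receptor, and resting mouse T cells are generally not counted among the cells that make it. Some members are less specific: Cd83 is also made by activated T cells, Pou2af1 has been described in activated T cells, and Cd86, Cd40 and Fscn1 are shared by dendritic cells and other myeloid cells.

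The 12 libraries held 63266477 to 76891786 counts each. Pkm was at 1056, 1065 and 1036 CPM (counts scaled to a common library total, with TMM factors) in stimulated KO libraries 1, 2 and 3, against 2483, 2450 and 2521 CPM in stimulated WT libraries. It was at 172, 195 and 188 CPM in resting KO libraries, against 424, 431 and 509 CPM in resting WT libraries. The 18 CD4 T cell markers were all present, and Cd4 itself lay between 353 and 911 CPM, against 5.21 to 26.7 CPM for Cd8a. Sex-linked transcripts split the 2 conditions as well. Xist measured 941 to 1126 CPM with stimulation, against 0.0496 to 0.0867 CPM at rest, and Ddx3y had 0 counts in each stimulated library, against 143 to 167 CPM at rest. Stimulation, the sex-linked transcripts and the table a library was deposited in cannot be told apart.

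All 36 transcripts had counts in every library, and together they made up 0.0994% to 0.805% of a library's counts. The summed level was 2339, 2356 and 2426 CPM in stimulated KO libraries 1, 2 and 3, against 1118, 1825 and 1489 CPM in stimulated WT libraries. In resting cells it was 4919, 5649 and 5275 CPM in KO libraries, against 7018, 5130 and 4010 CPM in WT libraries. Among stimulated libraries the 3 KO sums lay above the 3 WT sums, at a ratio of means of 1.61, whereas among resting libraries the KO sums lay inside the WT range, at a ratio of 0.980. The sums were lower in stimulated than in resting libraries of both genotypes, with resting means 2.22 times the stimulated mean in KO and 3.65 times in WT. In bulk RNA, fewer cells of a type and less RNA per cell cannot be told apart.

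Per kilobase of merged exons, which allows genes to be compared, the invariant chain Cd74, Igkc and Ighm stood highest. Cd74 measured 295 ± 10.8 CPM per kb in stimulated KO and 167 ± 44.1 in stimulated WT libraries (SD, n = 3 each). Igkc, the constant region of the kappa light chain, measured 277 ± 21.8 CPM per kb in stimulated KO and 188 ± 94.8 in stimulated WT libraries (SD, n = 3 each). The level of Ighm, the mu heavy chain constant region, was 208 ± 7.61 CPM per kb in stimulated KO and 142 ± 24.9 in stimulated WT libraries (SD, n = 3 each). Cd74 had the highest mean in KO and Igkc the highest in WT, and the WT libraries spread more widely than the KO libraries for all 3. At the other end stood Fcrla, an Fc receptor-like protein, with 0.586 ± 0.125 CPM per kb in stimulated KO and 0.261 ± 0.160 in stimulated WT libraries (SD, n = 3 each).

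**Figure D1:**
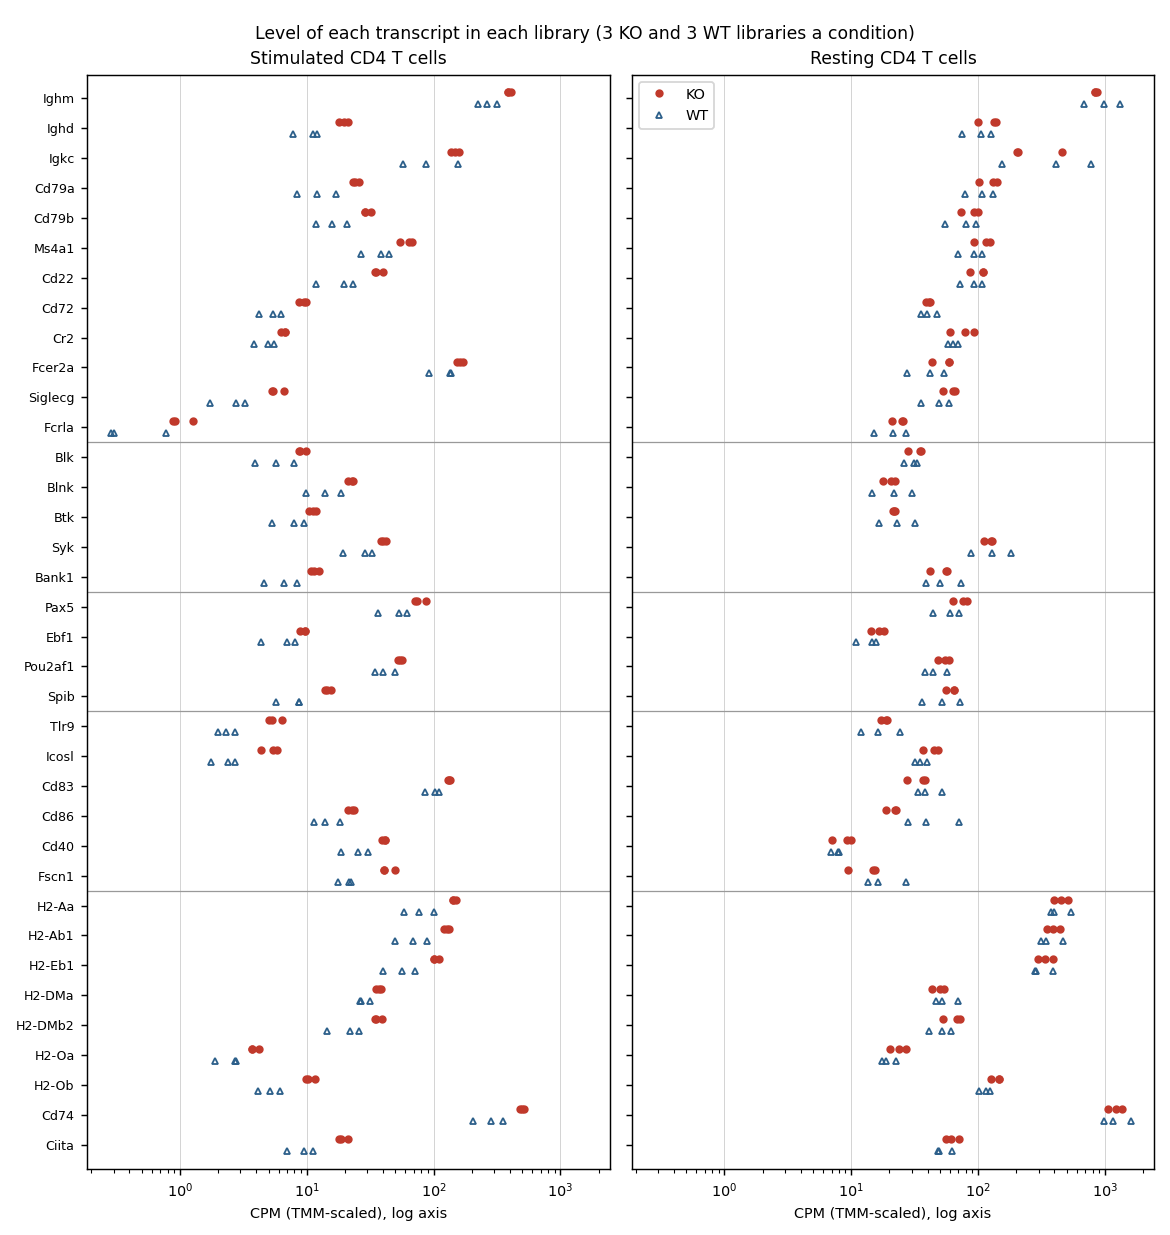
Level of each of the 36 transcripts in each library, as TMM-scaled CPM on a log axis, with stimulated cells on the left and resting cells on the right; filled circles are KO and open triangles WT libraries (3 each), and lines separate the roles. In stimulated cells the KO circles lie to the right of all WT triangles for 35 of 36 transcripts, Igkc being the exception, while in resting cells KO and WT libraries overlap for 34 of 36.

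In stimulated cells, 12 of the 36 transcripts were higher in KO than in WT libraries and none was lower (edgeR quasi-likelihood test, Benjamini-Hochberg adjusted p under 0.05 over 15090 genes). Over all genes tested, 3.37% were called higher and 1.4% lower. The 12 came from the toll-like receptor and costimulation genes (Tlr9, Icosl, Fscn1, Cd83), from class II presentation (Ciita, H2-Ob, H2-Oa, H2-DMa), from the surface receptors (Siglecg, Ighd, Cd72) and from B lineage transcription (Spib). All 36 log2 fold changes were above 0, where 49.9% of all genes were. They ran from 0.40 to 1.27 with a median of 0.82, against a median of -0.00016 over all genes tested. The KO libraries lay above all WT libraries for 35 of the 36, which held for 13.4% of all genes tested. At an unadjusted p under 0.05, 34 of 36 were higher, against 11.7% of all genes. In stimulated WT cells library 2 was the highest for 36 of 36 members and library 1 the lowest for 35. These counts are therefore not 36 independent observations. The members were also chosen with earlier results of these data known, so the shares of all genes describe and do not test.

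The number of calls changed with single libraries. Without KO library 1, 2 or 3 there were 6, 4 and 4 members called higher. Of all genes, 1.44%, 0.834% and 1.05% were then called in either direction, against 4.76% in the main fit. Without WT library 1, 2 or 3 there were 21, 25 and 7 members called higher, and 2.97%, 9.14% and 1.7% of all genes called. Tlr9, Icosl, Fscn1 and H2-Ob were called in all 6 of these fits, and the fold changes of all 36 transcripts stayed above 0 in each. DESeq2's Wald test called 29 members and 7.51% of all genes. In 1 edgeR fit of all 12 libraries, 5 members and 1.25% of all genes were called. These 5 were Cd72, Tlr9, Icosl, H2-Ob and Ciita, and the other members called in the main fit lost their calls there.

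**Figure D2:**
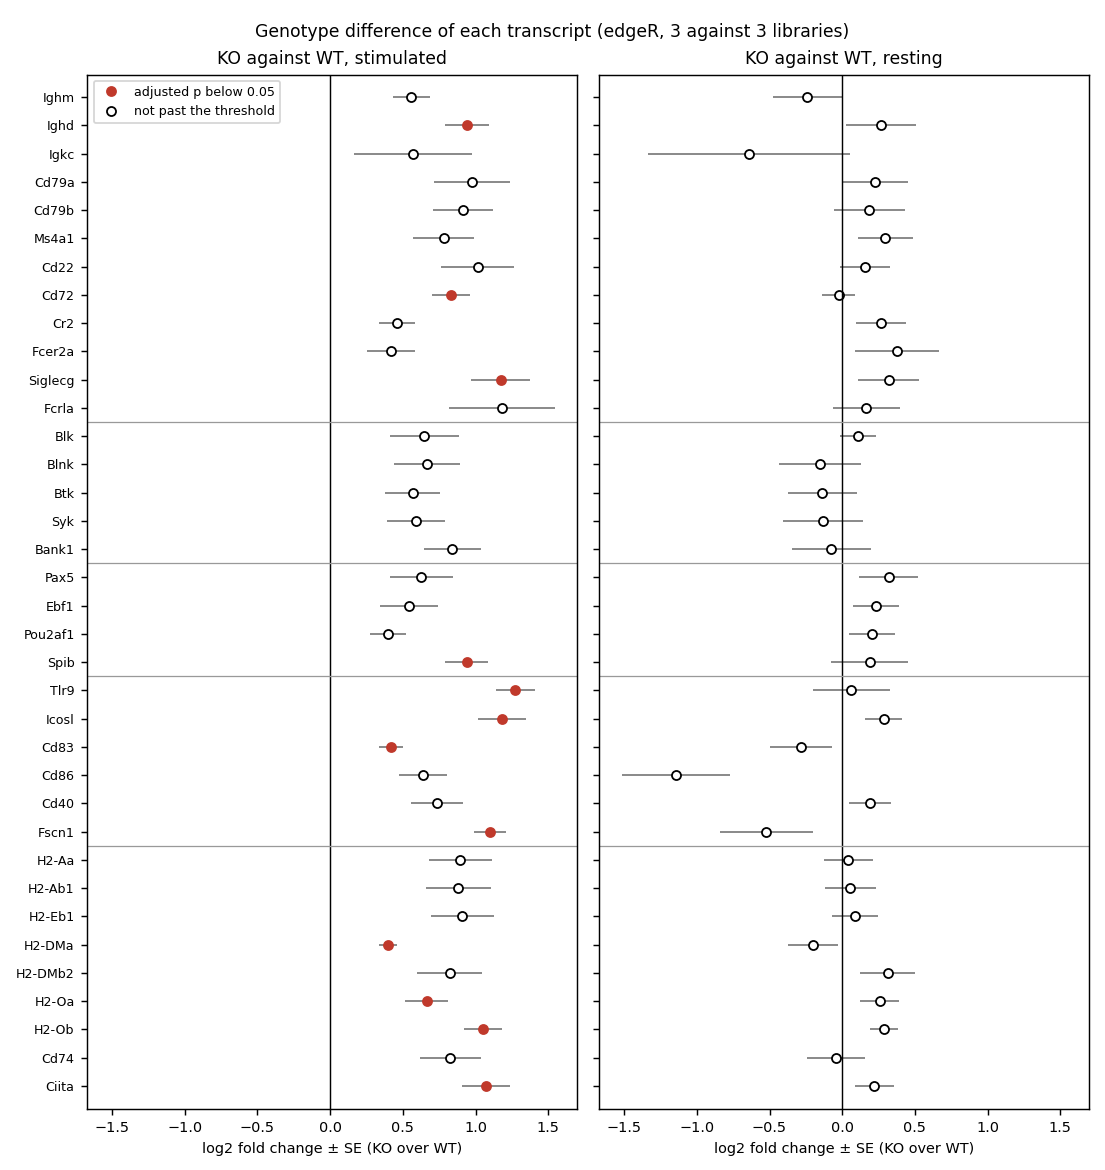
Log2 fold change of each transcript with its standard error, KO over WT, in stimulated (left) and resting (right) libraries, from edgeR with 3 against 3 libraries; filled red circles have an adjusted p below 0.05. All 36 values lie above 0 in stimulated cells and 12 are filled, while in resting cells 24 lie above 0 and none is filled.

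Among the 12 surface receptors, Siglecg, an inhibitory lectin that dampens B cell receptor signals (mm10 chromosome 7, 43408204 to 43418358), had 5.40, 5.36 and 6.59 CPM in stimulated KO libraries, against 1.73, 3.24 and 2.78 CPM in stimulated WT libraries. Its log2 fold change was 1.17 ± 0.20 (SE; edgeR adjusted p = 0.019). Every KO library lay above every WT library. Ighd, the constant region of surface IgD on mature naive B cells (chromosome 12, 113406604 to 113416324), had 17.9, 19.7 and 21.2 CPM in stimulated KO libraries, against 7.82, 11.96 and 11.1 CPM in stimulated WT libraries. Its log2 fold change was 0.94 ± 0.15 (SE; edgeR adjusted p = 0.024), again without overlap. Cd72, an inhibitory coreceptor of B cells (chromosome 4, 43446462 to 43454628), had 8.66, 9.52 and 9.88 CPM in stimulated KO libraries, against 4.19, 6.30 and 5.38 CPM in stimulated WT libraries, with a log2 fold change of 0.83 ± 0.13 (SE; edgeR adjusted p = 0.010). WT library 1 was the lowest for each of these 3 genes. Without WT library 3, or any 1 KO library, Siglecg and Ighd no longer passed (adjusted p up to 0.080 and 0.091). Cd72 no longer passed without KO library 2 or 3 (adjusted p up to 0.062). Ighd also missed the threshold with no filter on low counts (adjusted p = 0.099).

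The other 9 receptors had log2 fold changes of 0.42 to 1.18 with adjusted p-values of 0.069 to 0.52. They include Cd79a and Cd79b, the signalling chains of the B cell receptor, with 0.97 ± 0.26 and 0.91 ± 0.21 (SE), and Ms4a1, which encodes CD20, with 0.78 ± 0.21 (SE). Igkc was the 1 transcript of the 36 whose groups overlapped: it had 159, 147 and 136 CPM in stimulated KO libraries, against 57.6, 156 and 86.5 CPM in stimulated WT libraries. WT library 2 reached the KO range. The complement receptor Cr2, the inhibitory receptor Cd22 and the low-affinity IgE receptor Fcer2a had log2 fold changes of 0.46 ± 0.12, 1.01 ± 0.25 and 0.42 ± 0.17 (SE), none past the threshold.

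None of the 5 genes that carry the signal onward from the B cell receptor passed the threshold in stimulated cells, with log2 fold changes of 0.57 to 0.84 and adjusted p-values of 0.071 to 0.19. Syk, the kinase recruited to the CD79 chains, had 40.2, 38.7 and 42.3 CPM in stimulated KO libraries, against 19.3, 32.7 and 28.9 CPM in stimulated WT libraries. Blnk, the adaptor that Syk phosphorylates, had 21.1, 22.5 and 23.2 CPM in stimulated KO libraries, against 9.86, 18.6 and 14.0 CPM in stimulated WT libraries. Bank1, a scaffold for B cell receptor signalling, had 10.9, 11.4 and 12.6 CPM in stimulated KO libraries, against 4.61, 8.44 and 6.59 CPM in stimulated WT libraries. The KO libraries lay above the WT libraries for all 3, and the spread among WT libraries was the wider. Of 15 further genes of this pathway, 1 was higher and none lower in KO, where 3.37% and 1.4% of all genes were. The gene was Vav2, a guanine nucleotide exchange factor, with a log2 fold change of 0.16 ± 0.035 (SE, edgeR adjusted p = 0.036). The median of the 15 was 0.13. Many of them, such as the adaptors and phosphatases shared by lymphocytes, are also used by T cells.

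Of the 4 transcription factors, Spib, an ETS factor of B cells and plasmacytoid dendritic cells (chromosome 7, 44525993 to 44532071), was higher in KO. It had 14.5, 14.0 and 15.4 CPM in stimulated KO libraries, against 5.71, 8.68 and 8.66 CPM in stimulated WT libraries, a log2 fold change of 0.94 ± 0.15 (SE; edgeR adjusted p = 0.018). The groups did not overlap. The call was lost without any 1 of the KO libraries (adjusted p up to 0.076) and with no filter on low counts (adjusted p = 0.065). Pax5, which fixes B cell identity, Ebf1, which acts before it, and Pou2af1, the coactivator of octamer factors, had log2 fold changes of 0.40 to 0.63 and adjusted p-values of 0.15 to 0.21.

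All 4 of the transcripts of sensing and costimulation that passed were higher in KO. Tlr9, the endosomal receptor for CpG DNA (chromosome 9, 106222598 to 106226883), had 5.37, 5.03 and 6.39 CPM in stimulated KO libraries, against 1.99, 2.70 and 2.29 CPM in stimulated WT libraries. Icosl, the ligand of the T cell costimulator ICOS (chromosome 10, 78069302 to 78083913), had 4.33, 5.78 and 5.38 CPM in stimulated KO libraries, against 1.76, 2.73 and 2.39 CPM in stimulated WT libraries. The lowest KO library lay above the highest WT library for both genes. Their log2 fold changes were 1.27 ± 0.14 and 1.18 ± 0.17 (SE; edgeR adjusted p = 0.0020 and 0.0070). Tlr9 had the largest change of all 36 and remained past the threshold in each fit that left out 1 library, with adjusted p-values up to 0.016.

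Fscn1, the actin-bundling protein fascin of mature dendritic cells (chromosome 5, 142960343 to 142973185), had 49.4, 40.8 and 40.9 CPM in stimulated KO libraries, against 17.6, 22.5 and 21.4 CPM in stimulated WT libraries. Cd83, a surface protein of mature dendritic cells and activated lymphocytes (chromosome 13, 43784775 to 43803132), had 130, 135 and 133 CPM in stimulated KO libraries, against 85.7, 110 and 103 CPM in stimulated WT libraries. Neither pair of groups overlapped. The log2 fold change was 1.10 ± 0.11 for Fscn1 and 0.42 ± 0.081 for Cd83 (SE; edgeR adjusted p = 0.0061 and 0.039). Fscn1 missed the threshold in the fit of all 12 libraries (adjusted p = 0.11). Cd83 missed it without WT library 3 or any 1 KO library (adjusted p up to 0.13) and with no filter on low counts (adjusted p = 0.15). Cd86 and Cd40, which costimulate T cells and receive T cell help, had log2 fold changes of 0.64 ± 0.17 and 0.73 ± 0.18 (SE), both with an adjusted p of 0.10.

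The 9 class II genes hold 4 of the 12 calls. Ciita (chromosome 16, 10480059 to 10528418) had 18.6, 17.9 and 21.1 CPM in stimulated KO libraries, against 6.93, 11.2 and 9.45 CPM in stimulated WT libraries, a log2 fold change of 1.07 ± 0.16 (SE; edgeR adjusted p = 0.021). H2-Ob, the beta chain of the DO protein that restrains peptide loading in B cells (chromosome 17, 34238903 to 34254414), had 9.78, 10.3 and 11.6 CPM in stimulated KO libraries, against 4.16, 6.16 and 5.10 CPM in stimulated WT libraries. Its log2 fold change was 1.05 ± 0.13 (SE; edgeR adjusted p = 0.0049). The lowest KO library exceeded the highest WT library for both genes. H2-Oa, its alpha chain (chromosome 17, 34092340 to 34095234), had 3.72, 3.67 and 4.18 CPM in stimulated KO libraries, against 1.90, 2.75 and 2.70 CPM in stimulated WT libraries. H2-DMa, the alpha chain of the peptide-exchange catalyst DM (chromosome 17, 34119541 to 34139101), had 35.3, 37.4 and 38.2 CPM in stimulated KO libraries, against 26.9, 31.4 and 26.4 CPM in stimulated WT libraries. Again no library of one genotype lay inside the range of the other, and the log2 fold changes were 0.66 ± 0.15 and 0.40 ± 0.063 (SE; edgeR adjusted p = 0.035 and 0.010). Of the 4, H2-Ob kept its call in all 6 fits that left out 1 library. Ciita lost it without WT library 3 or any 1 KO library (adjusted p up to 0.10) and with no filter on low counts (adjusted p = 0.086). H2-Oa lost it in 5 of the 6 (adjusted p up to 0.14), and H2-DMa without KO library 2 or 3 (adjusted p up to 0.063).

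The remaining 5 class II genes, which include the chains that carry peptide to the surface, did not pass. H2-Aa, the alpha chain of I-A, H2-Ab1, its beta chain, H2-Eb1, the beta chain of I-E, H2-DMb2, a beta chain of DM, and Cd74 had log2 fold changes of 0.82 to 0.91 in stimulated cells, with adjusted p-values of 0.11 to 0.13. The counts of H2-DMb2 are uncertain, since its near-identical neighbour H2-DMb1 can share its reads. Of all genes, 3.37% were called higher in this comparison and 1.4% lower. Among 14 further genes of class II presentation and its control, 3 were higher and none lower in KO. These were March1, a ubiquitin ligase that removes class II and CD86 from the surface (log2 fold change 1.31 ± 0.20, SE), Cd80, a ligand of CD28 (0.92 ± 0.13), and Lgmn, an endosomal protease (0.52 ± 0.12), with edgeR adjusted p-values of 0.0080, 0.0073 and 0.041. The subunits of RFX and NF-Y and Creb1, whose products bind class II promoters, were not among them.

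The promoter sequences of 5 class II members are shown because these genes share the arrangement through which Ciita acts, an X box and a Y box held at a near-constant distance upstream of the start. Windows from RefSeq (GRCm38.p6), 5′ to 3′ on the gene's strand, have in capitals the AAC at the end of the X box core and the ATTGG of the Y box.
H2-Aa (chr17:34287857-34287912, minus strand): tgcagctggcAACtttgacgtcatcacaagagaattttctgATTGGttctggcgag
H2-Eb1 (chr17:34305768-34305822, plus strand): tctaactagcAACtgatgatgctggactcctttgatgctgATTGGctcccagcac
H2-DMb2 (chr17:34145118-34145173, plus strand): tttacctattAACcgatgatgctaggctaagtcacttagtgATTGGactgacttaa
H2-Oa (chr17:34092295-34092350, plus strand): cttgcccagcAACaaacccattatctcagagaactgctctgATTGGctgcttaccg
H2-Ob (chr17:34238810-34238862, plus strand): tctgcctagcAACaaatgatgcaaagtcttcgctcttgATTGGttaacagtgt

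Between AAC and ATTGG lie 28, 27, 28, 28 and 25 bases in this order, and the AAC starts 79, 89, 121, 74 and 85 bases before the annotated start. AAC, 25 to 28 bases of any kind and ATTGG, searched on both strands, occurred in 2.49% of 32851 promoters of 300 bases (250 before and 50 after the start). It occurred in 5 of the 6 class II members that have an entry in this table, H2-DMa being the sixth, and outside them in Fcrla among the 24 members with an entry. ATTGG alone occurred in 37.4% of all promoters. The spacing was set after these sequences had been read, so the counts describe these windows. H2-Oa and H2-Ob passed the threshold in stimulated cells and H2-Aa, H2-Eb1 and H2-DMb2 did not.

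Tlr9 and Blnk are the 2 members with an entry that hold the octamer ATGCAAAT, searched on both strands, the motif known for immunoglobulin promoters and bound by the octamer factors that Pou2af1 assists. It occurred in 1.74% of all promoters, and capitals mark it below, where Blnk carries it on the opposite strand.
Tlr9 (chr9:106222511-106222548, plus strand): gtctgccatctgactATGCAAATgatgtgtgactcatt
Blnk (chr19:40994329-40994366, minus strand): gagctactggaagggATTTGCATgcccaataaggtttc

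**Figure D3:**
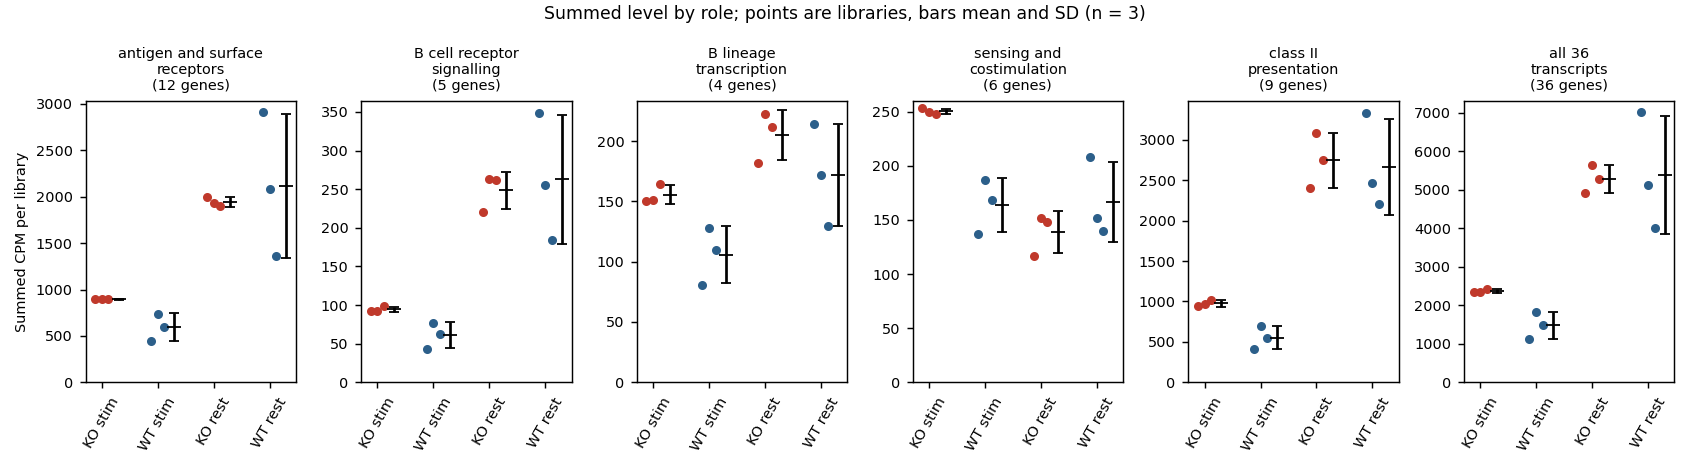
Summed CPM per library of each role and of all 36 transcripts, on axes that start at 0; points are libraries 1 to 3 from left to right, red for KO and blue for WT, and black bars give mean and SD (n = 3). In stimulated cells the KO points lie above the WT points in each of the 5 roles and in the total, with ratios of means from 1.47 to 1.78, and in resting cells they overlap.

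By role, the ratio of the summed means of KO over WT in stimulated cells was 1.78 for class II presentation, 1.55 for B cell receptor signalling, 1.53 for sensing and costimulation, 1.50 for the receptors and 1.47 for transcription. The class II sum was 978 ± 40.2 CPM in stimulated KO and 550 ± 142 CPM in stimulated WT libraries (SD, n = 3 each). The receptor sum was 896 ± 4.77 CPM in stimulated KO and 596 ± 146 CPM in stimulated WT libraries (SD, n = 3 each). Without the 3 immunoglobulin genes the ratio over the members was 1.65. These sums were not tested, because the members were chosen with results of these data known.

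Markers of several other cells moved with genotype in the stimulated libraries. Of all genes tested there, 3.37% were called higher in KO and 1.4% lower. The 16 myeloid markers summed to 105, 112 and 107 CPM in stimulated KO libraries, against 43.1, 74.3 and 52.6 CPM in stimulated WT libraries, and 7 of 15 tested were higher in KO, of which Adgre1, Cd14 and Csf1r changed most. The 17 other B cell genes summed to 316 to 336 CPM in stimulated KO and 177 to 273 CPM in stimulated WT libraries, and 3 of 17 were higher in KO (Fcmr, Cd180 and Cxcr5). The KO libraries lay above the WT libraries in both sums. The 10 dendritic cell markers summed to 302 to 375 CPM in stimulated KO and 201 to 270 CPM in stimulated WT libraries. Most of that sum was the chemokine Ccl22. Of these markers, 2 of 6 tested (Flt3 and Ccl17) were higher in KO. Batf3 had a log2 fold change below 0, at -0.38 ± 0.14 (SE), and was not called. Xcr1, Clec9a, Siglech and Cd209a did not pass the filter on low counts. Cd209a had 0 counts in all 6 stimulated libraries, which allows up to 0.0496 CPM in a library. The 2 CD8 T cell markers summed to 31.7 to 36.4 CPM in stimulated KO and 17.3 to 24.0 CPM in stimulated WT libraries, with Cd8b1 called higher. The 6 natural killer cell markers overlapped, at 52.6 to 63.4 CPM in stimulated KO and 30.9 to 58.1 CPM in stimulated WT libraries, and none passed. The 6 erythroid markers summed to 15.5 to 26.8 CPM in stimulated KO libraries, against 20.5, 79.8 and 22.2 CPM in stimulated WT libraries. Of these, 5 were tested, all with log2 fold changes below 0 (median -1.05), and none passed; WT library 2 stood apart and the other libraries overlapped. The 6 plasma cell markers overlapped, at 139 to 146 CPM in stimulated KO and 110 to 148 CPM in stimulated WT libraries, and none of 5 tested passed. The 20 interferon response genes summed to 968 to 1012 CPM in stimulated KO and 833 to 870 CPM in stimulated WT libraries, and 10 were higher, led by Oasl1, Ifi213 and Oasl2. The 18 CD4 T cell markers summed to 4855 to 4959 CPM in stimulated KO and 4983 to 5019 CPM in stimulated WT libraries; none passed, and their median log2 fold change was -0.03. The part of these cells in the values of the 36 transcripts was not tested.

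**Figure D4:**
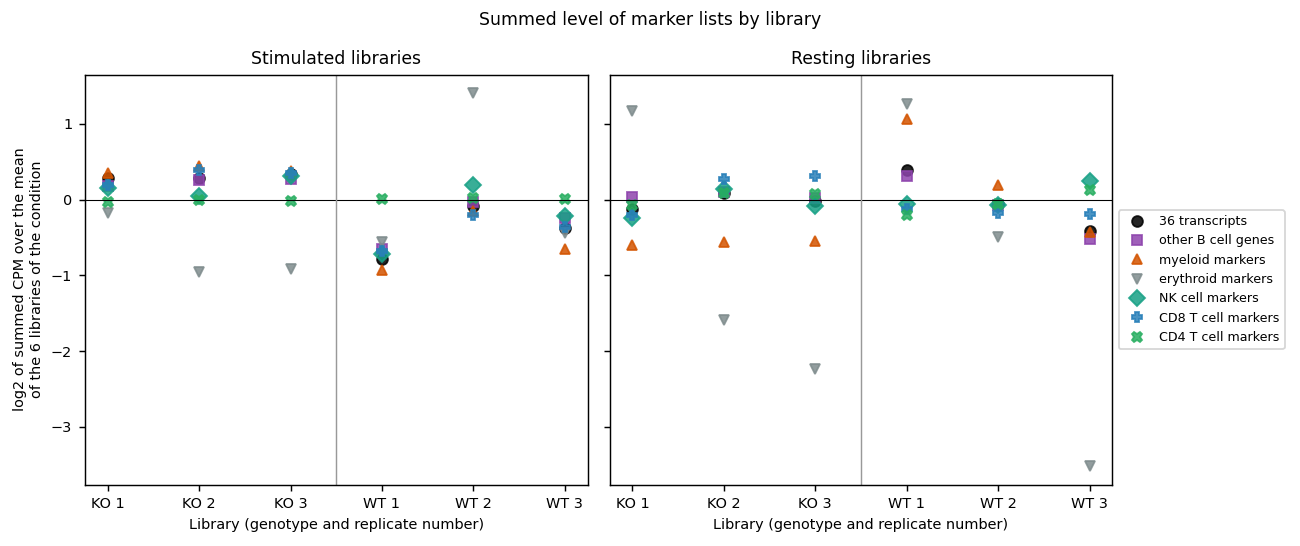
Summed CPM of marker lists in each library, as log2 over the mean of the 6 libraries of the condition, with stimulated libraries on the left and resting ones on the right; a vertical line separates KO from WT. In stimulated cells the 36 transcripts (black), the other B cell genes, the myeloid markers and the CD8 T cell markers are higher in the 3 KO than in the 3 WT libraries, while the CD4 T cell markers lie near 0 throughout; in resting cells the erythroid markers are highest in both libraries numbered 1.

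In resting cells none of the 36 transcripts passed the threshold, with adjusted p-values from 0.32 upwards (edgeR, 16637 genes tested, of which 0.0361% were called). DESeq2's Wald test also called none. The log2 fold changes of KO over WT ran from -1.14 to 0.38 with a median of 0.16, and 24 of 36 lay above 0, against 52.1% of all genes. At an unadjusted p under 0.05, H2-Ob was higher and Cd86 lower, where 5.61% and 8.11% of all genes were. These 2 were also the members whose groups did not overlap, which held for 19.9% of all genes tested. H2-Ob had 126, 145 and 147 CPM in resting KO libraries, against 124, 115 and 101 CPM in resting WT libraries, a log2 fold change of 0.29 ± 0.098 (SE; edgeR adjusted p = 0.32). Cd86, a ligand of CD28, had 18.8, 21.9 and 22.6 CPM in resting KO libraries, against 71.3, 39.1 and 28.2 CPM in resting WT libraries, a log2 fold change of -1.14 ± 0.37 (SE; edgeR adjusted p = 0.33). WT library 1 was the highest. Myeloid cells also make Cd86, and the 16 myeloid markers summed to 1217, 1253 and 1257 CPM in resting KO libraries, against 3854, 2101 and 1375 CPM in resting WT libraries. Their part in the Cd86 values was not tested.

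The resting WT libraries spread widely around the same genes, which limits what this comparison can show. The highest sum over the members was 1.15 times the lowest in resting KO libraries and 1.75 times in resting WT libraries. WT library 1 was the highest of its group for 35 of 36 transcripts and WT library 3 the lowest for 35, the exception being Fscn1. Igkc had 458, 205 and 203 CPM in resting KO libraries, against 773, 411 and 153 CPM in resting WT libraries, so that the libraries numbered 1 were the highest of both groups. The plasma cell gene Jchain, which links antibody subunits, was also highest in the libraries numbered 1, at 195, 33.0 and 34.5 CPM in resting KO libraries, against 318, 146 and 37.4 CPM in resting WT libraries. The same held for the sum of 6 erythroid markers, at 1367, 203 and 130 CPM in resting KO libraries, against 1468, 434 and 53.3 CPM in resting WT libraries. Cd79a was lowest in library 1 in KO, with 102, 140 and 132 CPM in resting KO libraries, against 130, 108 and 79.1 CPM in resting WT libraries. With both resting libraries numbered 1 left out, 33 of 36 fold changes lay above 0. Their median on the log2 scale was 0.41, against 0.0023 over all genes. Of the 36, 15 then had an unadjusted p under 0.05 (edgeR), against 2 in the main fit. The share of all genes at that p was not computed for this fit. None of the 36 passed the threshold, where 0.18% of all genes did.

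Stimulated cells had less of most of these transcripts than resting cells in both genotypes. The conditions also differed in sex-linked transcripts and in the deposited table, which cannot be told apart from stimulation here. In KO cells 27 were lower and 4 higher, and in WT cells 30 were lower and 3 higher (edgeR, 17460 genes tested over 12 libraries). Over all genes, 43.2% were called lower and 39.6% higher in KO, and 44.8% lower and 39.3% higher in WT. The members' median log2 fold change was -1.58 in KO and -2.31 in WT, against -0.11 and -0.14 over all genes tested. Called lower in both genotypes were 27 genes, among them 10 of the 12 receptors and all 9 class II genes. Fcrla fell by 4.54 ± 0.33 in KO and fell by 5.54 ± 0.36 in WT on the log2 scale (SE), further than any other member. H2-Ob fell by 3.72 ± 0.13 in KO and fell by 4.46 ± 0.14 in WT on the log2 scale (SE), with edgeR adjusted p-values of 2.4e-10 and 7.3e-11.

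Markers of several other cells were lower after stimulation too, as were most interferon response genes and CD4 T cell markers. All 16 myeloid markers were called lower in both genotypes, with a median log2 fold change of -4.37 in KO and -6.47 in WT. Their sum was 105 to 112 CPM in stimulated KO libraries, against 1217 to 1257 CPM in resting KO libraries, and 43.1 to 74.3 CPM in stimulated WT libraries, against 1375 to 3854 CPM in resting WT libraries. All 6 erythroid markers were also called lower in both genotypes, as were 4 of 6 natural killer cell markers in KO and 5 of 6 in WT, and 17 of 20 interferon response genes in each. Of the 18 CD4 T cell markers, 13 were called lower and 4 higher in each genotype, with medians of -0.72 in KO and -0.60 in WT. Of 10 dendritic cell markers, 6 were called lower and 3 higher in each genotype. Their summed mean rose, to 347 CPM in stimulated KO from 117 CPM in resting KO libraries. In WT it rose to 237 CPM from 125 CPM. The mean of Ccl22 was 138 CPM per kb in stimulated KO, against 1.74 in resting KO libraries. In WT it was 92.1 CPM per kb in stimulated libraries, against 3.29 in resting ones. Batf3 and Ccl17 also had higher means in stimulated libraries of both genotypes. Flt3, Xcr1, Clec9a, Itgax, Cd209a and Siglech had lower means there. Of 6 plasma cell markers, 3 were called lower and 2 higher in KO, and 3 lower and 1 higher in WT. The part of other cells in the lower levels of the 36 transcripts was not tested.

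The transcripts higher after stimulation in both genotypes were Fcer2a, Cd83 and Cd40. Fcer2a, the low-affinity IgE receptor CD23, had 153, 169 and 162 CPM in stimulated KO libraries, against 43.3, 59.1 and 59.1 CPM in resting KO libraries, and its log2 fold change was 1.59 ± 0.25 (SE; edgeR adjusted p = 0.00024). In WT it had 92.8, 136 and 136 CPM in stimulated libraries, against 54.3, 41.6 and 27.4 CPM in resting libraries, a log2 fold change of 1.57 ± 0.25 (SE; edgeR adjusted p = 0.00025). No stimulated library lay as low as a resting one in either genotype. Cd40, which receives T cell help through CD40 ligand, had log2 fold changes of 2.23 ± 0.17 in KO and 1.71 ± 0.17 in WT, and Cd83 had 1.96 ± 0.18 in KO and 1.28 ± 0.17 in WT (SE). Over the same comparison Cd79a fell by 2.36 ± 0.26 in KO and fell by 3.08 ± 0.28 in WT on the log2 scale (SE), so that the ratio of Fcer2a to Cd79a counts was 6.28 to 7.08 in stimulated KO libraries, against 0.421 to 0.449 in resting KO libraries. In WT the ratio was 7.97 to 11.3 in stimulated libraries, against 0.346 to 0.416 in resting ones.

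Fscn1 was called higher in KO only, with a log2 fold change of 1.72 ± 0.27 in KO and 0.11 ± 0.27 in WT (SE). Igkc, Blnk and Cd86 were called lower in WT only, at -0.97 ± 0.60, 0.14 ± 0.27 and 0.10 ± 0.31 in KO, against -2.16 ± 0.62, -0.65 ± 0.28 and -1.67 ± 0.32 in WT (SE). The call of Blnk in WT sat at an adjusted p of 0.049 and was lost in most alternatives. H2-DMa in KO fell by 0.41 ± 0.14 on the log2 scale (SE; edgeR adjusted p = 0.017), a call lost without resting KO library 2 or stimulated KO library 1. Pax5 and Pou2af1 passed in neither genotype, with log2 fold changes of 0.07 ± 0.22 and 0.0044 ± 0.15 in KO and -0.21 ± 0.22 and -0.17 ± 0.15 in WT (SE). Pax5 and Pou2af1 were called lower in WT when library totals were left unscaled (adjusted p = 0.040 and 0.013).

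**Figure D5:**
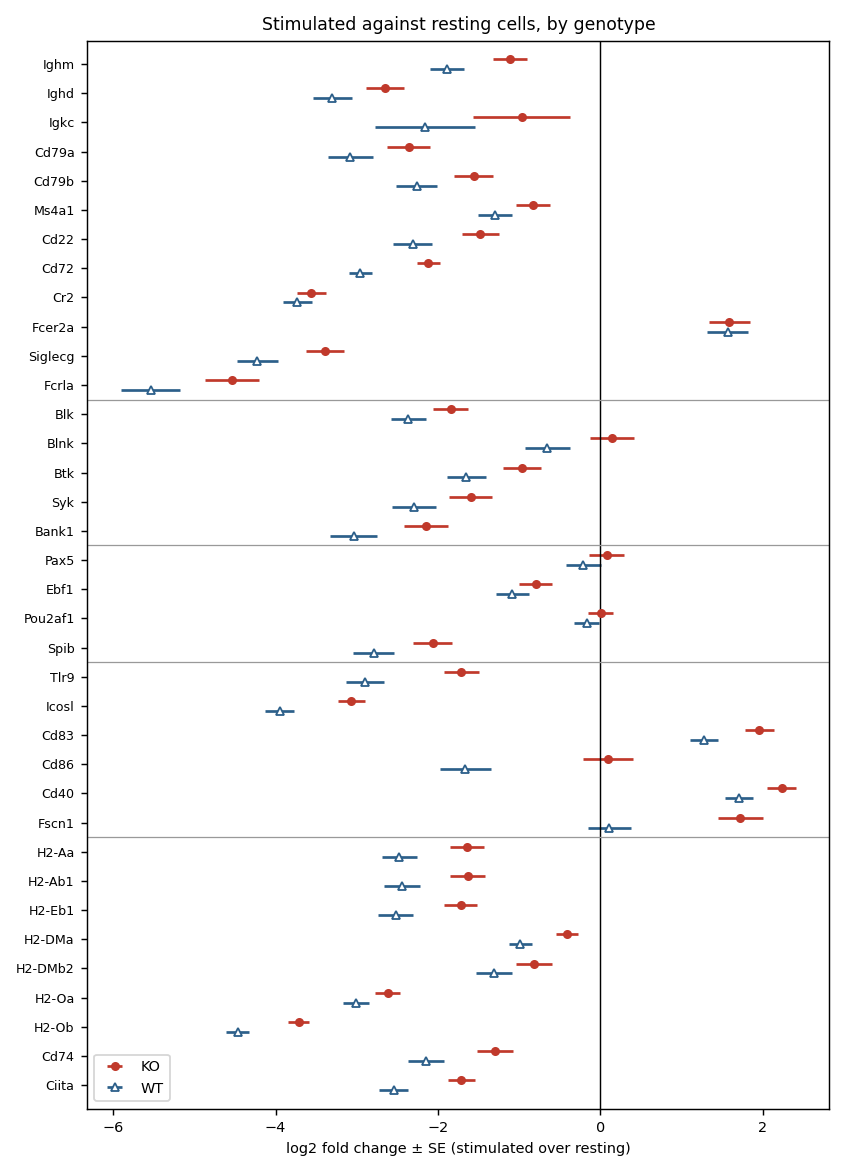
Log2 fold change of each transcript with its standard error, stimulated over resting, in KO (red circles) and WT (open blue triangles), from 1 edgeR fit of 12 libraries. Most values lie left of 0 in both genotypes, Fcer2a, Cd83 and Cd40 lie right of 0 in both, and the KO value lies to the right of the WT value for all 36.

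The difference between the responses, KO minus WT, passed the threshold for none of the 36 transcripts, where 0.693% of 17460 genes did. All 36 values were above 0, against 48.6% of all genes, with a median of 0.74, and 17 of them had an unadjusted p under 0.05, against 9.58% of all genes that were higher at that p. Other lists lay above 0 as well. All 16 myeloid markers did, with a median of 1.96; 13 had an unadjusted p under 0.05 and 1 was called, Cd14 (2.77 ± 0.53, SE; edgeR adjusted p = 0.049). All 20 interferon response genes did too, with a median of 1.17; 16 had an unadjusted p under 0.05 and 5 were called, with Oasl1 at 1.62 ± 0.26 (SE; edgeR adjusted p = 0.018). Of 10 dendritic cell markers, 1 was called, Ccl17 (2.20 ± 0.41, SE; edgeR adjusted p = 0.035). Their part in the values of the 36 transcripts was not tested. This comparison uses the same libraries as those above and is not a separate observation. The smallest adjusted p was that of Cd72, with a difference of 0.84 ± 0.19 (SE; edgeR adjusted p = 0.076). H2-Ob had 0.75 ± 0.18, Fscn1 1.61 ± 0.38 and Cd86 1.76 ± 0.44 (SE; edgeR adjusted p = 0.091, 0.099 and 0.11). DESeq2's Wald test called 7 of the 36, and 5.8% of all genes in either direction. Leaving out resting WT library 3 gave 8 calls among the 36, and 9.2% of all genes called. Leaving out stimulated WT library 2 gave 2, and 1.21% of all genes called. The response to stimulation was thus not shown to differ between genotypes for any single member by the edgeR test.

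In 3 of the 4 groups the members kept a nearly common order among libraries. In stimulated KO cells, library 3 was the highest of the group for 25 transcripts, and the highest sum was 1.04 times the lowest. In stimulated WT cells the ratio was 1.63, with library 2 the highest for 36 of 36 transcripts and library 1 the lowest for 35. Among resting KO libraries, library 1 was the lowest for 34, in contrast to its high Igkc. The class II chains kept their proportion in all 12 libraries. The H2-Ab1 count was 0.847 to 0.899 times that of H2-Aa, the other chain of I-A. The count of H2-Eb1, which belongs to I-E, was 0.691 to 0.764 times that of H2-Aa. Cd74 stood at 3.38 to 3.46 times the H2-Aa count in stimulated KO libraries, against 2.65 to 2.75 times in resting KO libraries. In WT it stood at 3.48 to 3.73 times in stimulated libraries, against 2.61 to 2.94 times in resting ones. The KO ratios of Cd74 lay below the WT ratios in stimulated cells and inside their range in resting cells.

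The proportions among B cell genes differed more between the conditions. Ighm stood at 14.8 to 17.6 times the Cd79a count in stimulated KO libraries, against 5.97 to 8.47 times in resting KO libraries. In WT it stood at 18.5 to 26.6 times in stimulated libraries, against 8.64 to 10.1 times in resting ones. Pax5 stood at 3.05 to 3.39 times Cd79a in stimulated KO libraries, against 0.577 to 0.615 times in resting KO libraries. In WT the ratio was 3.57 to 4.46 in stimulated libraries, against 0.541 to 0.563 in resting ones. These ratios show unequal change between the genes and not that either gene kept its level.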

How the data were processed

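The deposited values are expected counts from RSEM, not normalized, in 1 table for each condition. Per the submitters' processing notes, RSEM 1.3.1, STAR 2.7.0f, cutadapt 1.18, bcl2fastq 2.20 and the build mm10 were used. The libraries were made with a stranded kit, per the labels' protocols; whether counting was stranded was not given in those sources, so counts of overlapping genes are less certain. Rounded counts were filtered (filterByExpr, at least 10 counts and 15 in total) and normalized with TMM. They were tested in edgeR 4.0.16 (R 4.3.3, robust quasi-likelihood F-test, Benjamini-Hochberg adjustment over all genes tested, threshold 0.05). The procedure was run on simulated counts drawn for each gene separately, which do not cover shifts between libraries shared by many genes. KO and WT were compared within each condition in 6 libraries; contrasts across conditions came from 1 fit of 12. Replicates differed by more than sampling noise. All 55450 gene identifiers matched GENCODE M21, the source of coordinates; merged exon length gave CPM per kb. Counts of 0 were kept as 0 in fits and levels. Where a limit is given beside a 0, it is 3 counts in a library and covers counting error only. Promoters of 24 of the 36 genes were found in the RefSeq table.

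The members and lists were chosen with earlier results of these data known. Values in every library were given, per role, for up to 4 members with the largest change among those past the threshold in a genotype comparison, otherwise for the 3 with the highest mean CPM. Of other lists, the 3 called members that changed most were named. Values by library of Igkc, Cd86, Fcer2a, Cd79a, H2-Ob in resting cells and Jchain, the named ratios, and Ccl22 and Cd209a were chosen after they had been seen. Alternatives were DESeq2 1.42.0 (size factors and Wald test), other filters, a non-robust fit, a replicate block, 1 fit of all libraries, each library left out in turn and, added after seeing the data, unscaled totals and leaving out both resting libraries numbered 1.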

Additional observations from a re-analysis of the deposited data

How the results depend on the processing

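In stimulated cells the number of the 36 transcripts called higher in KO was 12 with DESeq2's size factors, with unscaled totals and when 1 CPM was required in 3 libraries, 9 with no filter, 25 with a non-robust fit, 29 with DESeq2's Wald test, 5 in 1 fit of all 12 libraries, and 4 to 25 with a library left out. None was called lower in these fits. Over all genes, the share called in either direction ran from 0.834% to 9.14% in them, against 4.76% in the main fit. The cause of these shifts was not tested. The log2 ratio of the summed levels, KO over WT, was 0.68 in stimulated cells, from 0.52 to 0.87 over the alternatives tried, and -0.03 in resting cells, from -0.20 to 0.21, with SDs between libraries of 0.25 and 0.29. Resting cells gave no call in any alternative. For the difference of responses DESeq2's Wald test called 7, and leaving out a library gave 0 to 8. Of all genes, these fits called 5.8% and 0.151% to 9.2%. No call changed direction in an alternative.

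With the replicate block, 15 members were called in stimulated cells, where 6.61% of all genes were called. Fscn1 was not among them (edgeR adjusted p = 0.089). Resting cells and the difference of responses still gave 0. Same-numbered KO and WT libraries correlated at -0.03, 0.0052 and 0.02 in stimulated and at 0.33, -0.11 and 0.27 in resting cells. In stimulated cells no KO library correlated best with the WT library of its own number. In resting cells KO libraries 1 and 3 did and library 2 did not. Whether the numbers pair the libraries is therefore uncertain. Unscaled totals moved the median log2 fold change of all genes for stimulated over resting cells to -0.44 in KO and -0.47 in WT, from -0.11 and -0.14, and 4 uncalled members that lay above 0 in KO then lay below it. They also moved the share of calls that were higher in stimulated KO against WT cells to 82.5% of all genes called, from 70.7%.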
